A study of Mus musculus with 12 samples.

Results

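The genes described here encode channels that carry the sodium current, set the pacemaker current and couple neighbouring heart cells: Scn4a and Scn4b (voltage-gated sodium channel subunits), Hcn2 and Hcn4 (pacemaker channels) and Gja1, Gja5 and Gjc1 (connexins, the subunits of gap junctions). They were chosen by name, 7 in all, and 6 of them have a row among the 43686 rows of the table. Scn4a, a skeletal muscle sodium channel, was not analysed here. All 6 passed the filter on low counts and were tested among 17155 rows.

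RNA was taken from the ventricular wall of mice whose strain is C57BL/6 in the labels and C57BL/6J in the study's methods, and poly-A RNA libraries were counted gene by gene. The 6 controls (WT) carried 2 floxed Sdhaf4 alleles and no Cre. The 6 mutants (KO) carried the same floxed alleles together with Ckmm-Cre, a transgene driven by the muscle creatine kinase promoter that is active in heart and skeletal muscle, so that the cells of the heart that are not muscle keep the gene. The labels name the mutants Sdhaf4-/- and give an age of 2 months for both groups, whereas the study's main text gives a younger age for RNA-seq and its reporting summary lists a pair of ages for such work, the older of which is about that of the labels. The comparison asks how the transcripts of the ventricle differ when Sdhaf4, an assembly factor of succinate dehydrogenase, is removed from heart muscle.

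Library totals ran from 23747014 to 27159228 counts in WT and from 26542930 to 31393393 in KO. Sdhaf4 itself (MGP_C57BL6NJ_G0016278) stood at 25.2 ± 5.80 CPM (counts scaled to library size; SD, n = 6) in WT and at 2.40 ± 0.170 CPM in KO, a log2 fold change of -3.39 (SE 0.16, edgeR quasi-likelihood test, adjusted p = 1.95e-10). WT replicate 6 had the lowest control value, 14.3 CPM, which is still above every KO library. Of the ventricular markers, Myl2, Myh6 and Tnnt2 were among the abundant transcripts of both groups. The atrial markers Myl7, Sln and Bmp10 reached at most 9, 6 and 1 counts in any library, and the nodal markers Isl1 and Vsnl1 had 0 counts in all 12. Other markers of these cell types passed the filter on low counts. They were Nppa, Tbx5, Nr2f2, Dkk3 and Myl4 for atrial cells, and Igfbp5, Tbx3, Tbx18, Cntn2 and Shox2 for conduction cells. Of all 17155 rows tested, 8767 passed an adjusted p of 0.05, which is 51.1%, with 25.6% of rows higher in KO and 25.5% lower. In 30.1% of rows every KO library lay on one side of every WT library.

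The upstroke of the ventricular action potential is carried by sodium channels, in which a pore-forming alpha subunit is joined by beta subunits that adjust its gating and its place in the membrane. HCN channels open on hyperpolarization, bind cyclic AMP and carry the pacemaker current. Hcn4 is the main form of the sinus node and Hcn2 is found at low level in working ventricular muscle. The impulse then passes from cell to cell through gap junctions: connexin 43 (Gja1) is the principal connexin of working ventricular muscle, connexin 40 (Gja5) belongs to atria, the His-Purkinje system and arterial endothelium, and connexin 45 (Gjc1) to nodal tissue, the early heart and vascular smooth muscle.

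The stretches of DNA just before the start sites are given for the 3 genes whose 2 groups of libraries did not overlap and for Gja1, the most abundant of the set. RefSeq start sites on GRCm38.p6 matched 5 of the 6 genes, Gjc1 being the one without an entry. Each sequence holds the 250 bases before the start, 5′ to 3′ on the strand of the gene, and capitals mark matches to 5 short motifs searched on both strands. For the AP-1 family of factors the letters were TGANTCA. For T-box factors the search used the core AGGTGT. The short core AAGTG stood for NKX2-5, a homeobox factor of the heart. For GATA factors such as GATA4 it was the run AGATAA. The TATA box, at which the general transcription machinery assembles, was searched as TATAAA.
Scn4b (chr9:45138374-45138623, plus strand): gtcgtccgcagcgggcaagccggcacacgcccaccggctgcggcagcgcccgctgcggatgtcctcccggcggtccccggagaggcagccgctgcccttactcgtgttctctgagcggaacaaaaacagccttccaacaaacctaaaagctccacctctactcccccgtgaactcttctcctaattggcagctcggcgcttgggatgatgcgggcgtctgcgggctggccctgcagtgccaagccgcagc
Hcn4 (chr9:58822699-58822948, plus strand): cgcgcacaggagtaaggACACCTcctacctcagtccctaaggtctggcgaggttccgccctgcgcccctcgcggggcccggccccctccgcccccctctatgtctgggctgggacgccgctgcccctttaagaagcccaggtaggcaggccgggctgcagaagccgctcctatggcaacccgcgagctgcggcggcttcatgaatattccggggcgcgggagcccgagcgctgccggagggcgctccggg
Gja5 (chr3:97032152-97032401, plus strand): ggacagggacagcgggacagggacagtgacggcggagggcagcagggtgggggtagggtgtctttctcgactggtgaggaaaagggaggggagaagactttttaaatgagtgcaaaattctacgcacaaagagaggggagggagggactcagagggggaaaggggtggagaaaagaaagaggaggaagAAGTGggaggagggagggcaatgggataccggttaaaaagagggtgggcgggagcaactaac
Gja1 (chr10:56377050-56377299, plus strand): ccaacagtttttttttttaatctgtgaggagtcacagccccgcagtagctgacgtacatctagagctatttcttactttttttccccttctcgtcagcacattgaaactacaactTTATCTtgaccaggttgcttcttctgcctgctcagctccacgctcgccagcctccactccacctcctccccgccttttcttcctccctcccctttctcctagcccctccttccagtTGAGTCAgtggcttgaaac
Before Gja1, the AP-1 letters lay 19 to 13 bases from the start and match the motif on both strands, and the GATA letters lay on the opposite strand 135 to 130 bases from it. The only match before Gja5 was the NKX2-5 core, 62 to 58 bases away, and the only match before Hcn4 was the T-box site on the opposite strand, 233 to 228 bases away. None of these matches overlapped another. None of the 5 motifs was found before Scn4b or Hcn2. Among 32851 RefSeq promoters of the same length, 6.75% held the AP-1 letters, 11.8% the T-box site, 40.7% the NKX2-5 core, 9.99% the GATA letters and 12.4% the TATA letters, and a match describes the sequence alone. G and C made up 66.0% of the bases before Scn4b, 71.2% before Hcn4, 56.4% before Gja5 and 50.0% before Gja1, against a median of 52.4% over all promoters.

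Of the 6 genes, 4 (66.7%) passed the threshold: Scn4b and Hcn4 fell, and Gja5 and Gjc1 rose. Hcn2 and Gja1 did not pass. For Scn4b, Hcn4 and Gja5, 3 of the 6, the 2 groups of libraries did not overlap. These shares stand beside the 51.1% of all rows that were called and the 30.1% that did not overlap, and the median log2 fold change of the 6 genes was -0.02, against 0.00 over all rows.

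**Figure D1:**
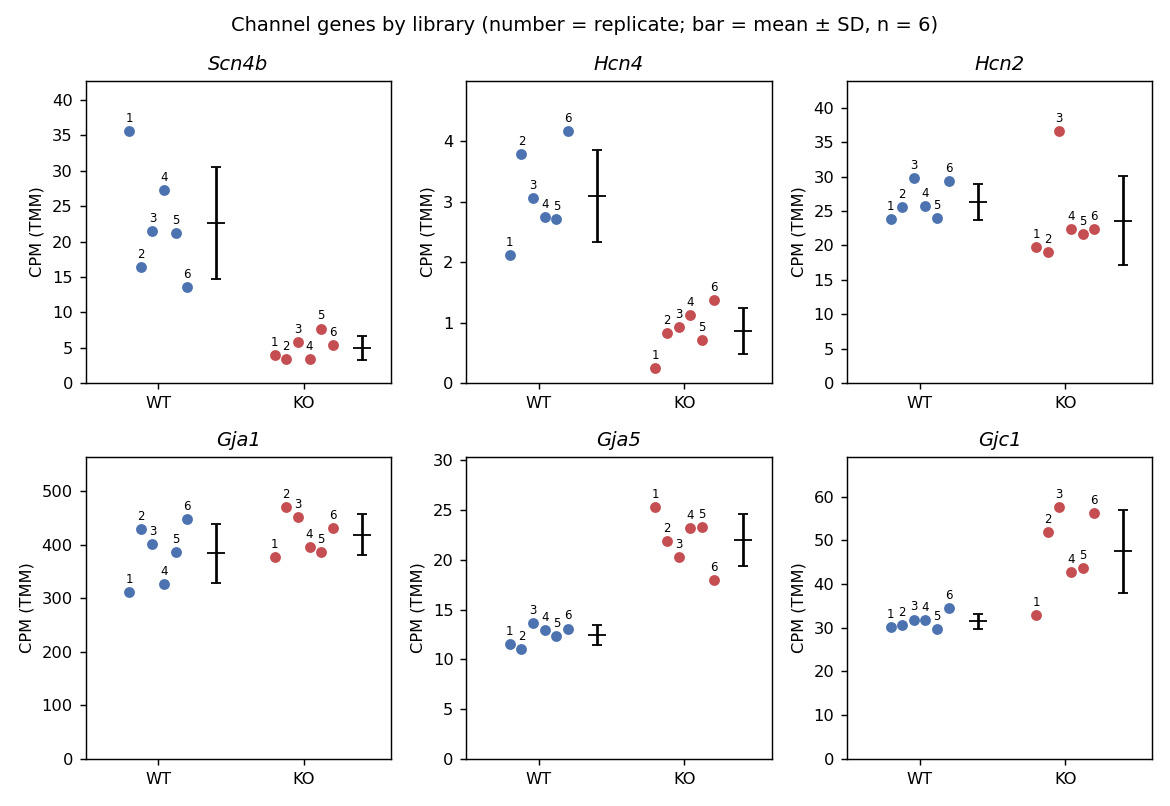
Normalised counts (CPM, y axis, from 0) of the 6 channel genes in each of the 12 libraries, numbered by replicate, with the mean ± SD of each group beside the points (n = 6). Scn4b and Hcn4 lie lower in all KO libraries and Gja5 higher, Gjc1 overlaps through KO replicate 1 alone, and KO replicate 3 stands apart for Hcn2 at 36.6 CPM.

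Scn4b encodes the beta4 subunit, a single-pass membrane protein that binds sodium channel alpha subunits. Its row (MGP_C57BL6NJ_G0035225) lies on the plus strand of chromosome 9, 44961164 to 44979063, in the C57BL/6NJ assembly of the table's identifiers. In WT the lowest library held 13.6 CPM, the median was 21.4 and the highest was 35.6. In KO the lowest was 3.44, the median 4.68 and the highest 7.72 CPM. The highest KO library thus stood below the lowest WT library, and the controls were themselves widely spread, with a coefficient of variation of 35.0%. Mean levels were 22.6 ± 7.90 CPM in WT and 4.97 ± 1.68 in KO, 4.52-fold lower, with a log2 fold change of -2.18 (SE 0.27, adjusted p = 2.00e-05). In whole-tissue RNA such as this, fewer cells of a type and less RNA per cell cannot be told apart.

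Other sodium channel genes were read beside it. Scn7a, which encodes a sodium-sensing channel of the alpha subunit family, rose from 58.8 ± 2.82 to 93.9 ± 8.87 CPM (log2 fold change 0.67, adjusted p = 9.75e-08), and its groups did not overlap. Scn2a, a channel best known from neurons, stood at 0.366 CPM in WT and 0.597 in KO and did not pass (adjusted p = 0.202), and neither did Scn10a. Of the beta subunits, Scn3b stood at 0.998 CPM in WT and 1.45 in KO (adjusted p = 0.106), and Scn2b at 0.487 and 0.562 CPM (adjusted p = 0.702). Per length, as FPKM (counts per gene length and library total), Scn4b was at 4.55 in WT and 1.00 in KO.

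Proteins that bind or place cardiac sodium channels formed the next list, of which 9 of 12 were tested. Of these, 5 (55.6%) fell and 2 (22.2%) rose, against 25.5% and 25.6% of all rows. The median log2 fold change of the list was -0.32. Rangrf, whose product MOG1 helps sodium channels reach the membrane, fell from 25.0 ± 2.77 to 7.64 ± 2.00 CPM (log2 fold change -1.71, SE 0.15, adjusted p = 1.85e-07), and its row shares bases with Slc25a35. Gpd1l, a glycerol-3-phosphate dehydrogenase-like protein that modulates the cardiac sodium current, fell by 0.64 on the log2 scale (adjusted p = 2.70e-08). The other 3 that fell were Fgf11 (-1.05) and Fgf13 (-0.32), 2 fibroblast growth factor homologous factors that bind the channel tail, and the ubiquitin ligase gene Nedd4l (-0.54). Cav3, the caveolin of muscle, rose by 0.46 (adjusted p = 1.45e-05).

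Hcn4, the channel of the sinus node, was the least abundant of the 6 genes. Its row (MGP_C57BL6NJ_G0035387) also lies on the plus strand of chromosome 9, 59748430 to 59787706. The WT libraries held 50 to 109 counts, which is 2.11 CPM in the lowest, 2.91 at the median and 4.17 in the highest. The KO libraries held 8 to 38 counts, or 0.257, 0.876 and 1.37 CPM. No KO library reached the lowest WT library. The KO library with the fewest counts, replicate 1, has a 95% Wilson interval of 0.132 to 0.515 CPM before TMM scaling, which covers counting error only. Mean levels were 3.10 ± 0.757 CPM in WT and 0.872 ± 0.381 in KO, 3.56-fold lower (log2 fold change -1.83, SE 0.29, adjusted p = 5.00e-05).

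Hcn2, the form of working ventricular muscle, did not pass the threshold over all 12 libraries. Its row (MGP_C57BL6NJ_G0017849) is on the plus strand of chromosome 10, 83033696 to 83053165. WT libraries ran from 23.8 to 29.7 CPM with a median of 25.6, and KO libraries from 19.0 to 36.6 with a median of 22.0. In KO, 5 libraries lay at or under 22.4 CPM, below every WT library, and KO replicate 3 lay above every WT library. The log2 fold change was -0.16 (SE 0.14, approximate 95% interval -0.43 to 0.11, adjusted p = 0.370). Without KO replicate 3 it was -0.33 (adjusted p = 0.00156), which passes the threshold as lower in KO, so the call on Hcn2 rests on that 1 library.

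Within a library, where a ratio needs no scaling between libraries, that of Hcn4 to Hcn2 in FPKM had a median of 0.0925 in WT and 0.0322 in KO. The ranges, 0.0746 to 0.125 and 0.0109 to 0.0516, did not overlap. The log2 difference was -1.77 (SE 0.35, exact permutation p = 0.00216, adjusted p = 0.00433 over 4 pairs), and without KO replicate 3 it was -1.69. Each KO library therefore had a lower ratio of Hcn4 to Hcn2 than any WT library. Of 6 tested genes among the HCN channels and their partners, 33.3% were called, against 51.1% of all rows. Hcn4 was the 1 that fell, and Kctd3, which encodes a protein that binds HCN3, the 1 that rose, by 0.33 (adjusted p = 0.000658). Pex5l, the gene of the HCN-binding protein TRIP8b, was at 0.786 CPM in WT and 1.03 in KO (adjusted p = 0.278), and Mrvi1 at 20.3 and 18.9 CPM (adjusted p = 0.380).

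Other genes that take part in pacemaking gave 3 rises and 1 fall among 9 tested (44.4% called, against 51.1% of all rows). Slc8a1, the cardiac sodium-calcium exchanger, rose from 105 ± 14.2 to 246 ± 14.5 CPM (log2 fold change 1.24, adjusted p = 1.56e-09), with an overlapping row, Gm11096. The T-type calcium channel gene Cacna1g rose by 0.74 (adjusted p = 3.93e-05), while Cacna1h, the other T-type gene tested, fell by 0.83 (adjusted p = 0.0340) with overlapping groups. Popdc2, a Popeye protein that binds cyclic AMP, rose by 0.57 (adjusted p = 5.33e-05) and had the highest FPKM of this list, and its row overlaps that of Cox17.

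**Figure D2:**
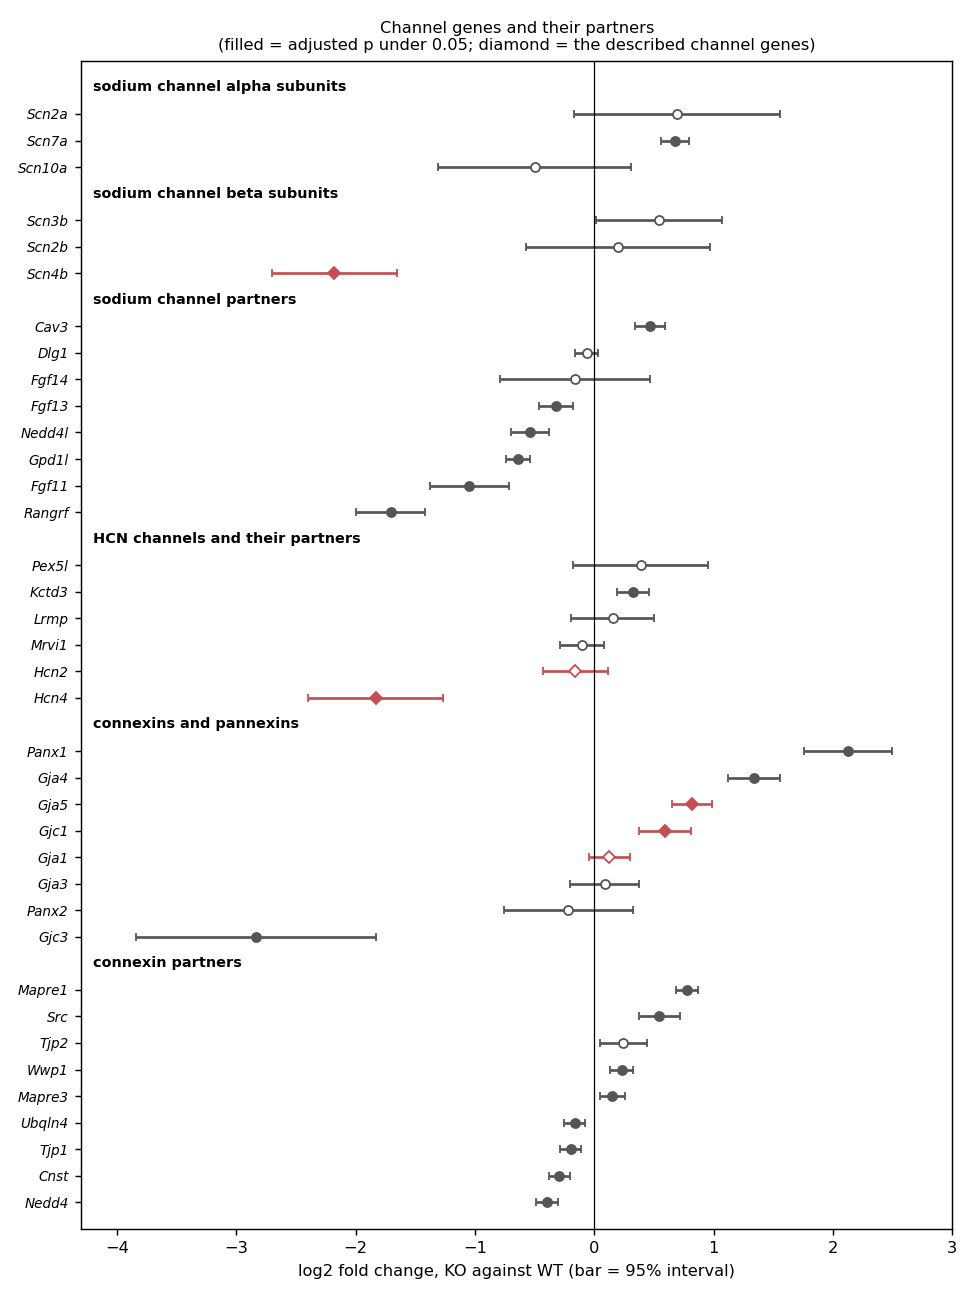
Log2 fold change of KO against WT (x axis) with an approximate 95% interval for tested sodium channel, HCN and connexin genes and their partners, filled where the adjusted p is under 0.05. Diamonds mark the 6 described genes: Scn4b at -2.18 and Hcn4 at -1.83 lie left of 0, Gja5 at 0.82 and Gjc1 at 0.59 right of it, and the intervals of Hcn2 and Gja1 hold 0.

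Gja1 encodes connexin 43 and was by far the most abundant of the connexins. Its row (MGP_C57BL6NJ_G0017632) is on the plus strand of chromosome 10, 57405649 to 57419543. The WT libraries ran from 312 to 447 CPM with a median of 394, and the KO libraries from 376 to 470 with a median of 414. The groups overlapped over most of their range. Gja1 was 384 ± 54.4 CPM in WT and 419 ± 38.4 in KO, and the difference did not pass the test (log2 fold change 0.13, SE 0.09, approximate 95% interval -0.05 to 0.30, adjusted p = 0.250).

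Gja5, the gene of connexin 40, was higher in KO. Its row (MGP_C57BL6NJ_G0028054) is on the plus strand of chromosome 3, 101373390 to 101567448. WT libraries held 11.0 CPM at the lowest, 12.7 at the median and 13.7 at the highest, and KO libraries 17.9, 22.5 and 25.3. Each KO library was above each WT library, and both groups were narrow. The means were 12.5 ± 1.02 and 22.0 ± 2.60 CPM, a 1.77-fold rise (log2 fold change 0.82, SE 0.09, adjusted p = 5.88e-07). The long span of the row shares 654 bases with Gpr89 on the opposite strand, which had 6391 counts over all libraries. Whether the counting used strand is not stated, so the part of Gpr89 reads in the Gja5 counts is uncertain.

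Gjc1 (MGP_C57BL6NJ_G0019635, minus strand of chromosome 11, 109104735 to 109126609), the gene of connexin 45, rose with a wider spread. The WT libraries kept within 29.6 to 34.5 CPM, with a median of 31.2, and the KO libraries ran from 32.8 to 57.6, with a median of 47.8. KO replicate 1, at 32.8 CPM, was the only KO library inside the WT range. The coefficient of variation was 5.53% in WT and 19.9% in KO. From 31.4 ± 1.74 to 47.5 ± 9.46 CPM the rise was 1.51-fold (log2 fold change 0.59, SE 0.11, adjusted p = 0.000406), and it was 0.68 without KO replicate 1.

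The KO libraries at the ends of these ranges were often the same. KO replicate 1 had the lowest Gja1, Gjc1 and Hcn4 and the highest Gja5 of the KO group. KO replicate 6 had the highest Hcn4, at 1.37 CPM, and the lowest Gja5, at 17.9 CPM, with Gjc1 at 56.1 CPM. Among the controls, WT replicate 6 had the lowest Scn4b and the highest Hcn4, Gja1 and Gjc1, and it was also the library with the lowest Sdhaf4. Without WT replicate 6 the log2 fold changes were -2.29 for Scn4b, -1.73 for Hcn4, 0.84 for Gja5 and 0.62 for Gjc1, all past the threshold.

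The balance between the connexins was compared within libraries, so that it does not depend on library scaling. Gja5 over Gja1 ran from 0.0332 to 0.0513 in WT (median 0.0427) and from 0.0537 to 0.0869 in KO (median 0.0679), without overlap. The log2 difference was 0.68 (SE 0.15, exact permutation p = 0.00216, adjusted p = 0.00433). Gjc1 over Gja1 rose from a median of 0.124 to 0.177, by 0.44 on the log2 scale (SE 0.11, exact permutation p = 0.00649, adjusted p = 0.00866), with overlap through KO replicate 1, at 0.138. The ratio of Gja5 to Gjc1 did not pass the test, with a log2 difference of 0.25 (SE 0.20, exact permutation p = 0.247), and it ran from 0.261 to 0.629 in KO against 0.292 to 0.350 in WT. The adjusted values cover 4 pairs.

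**Figure D3:**
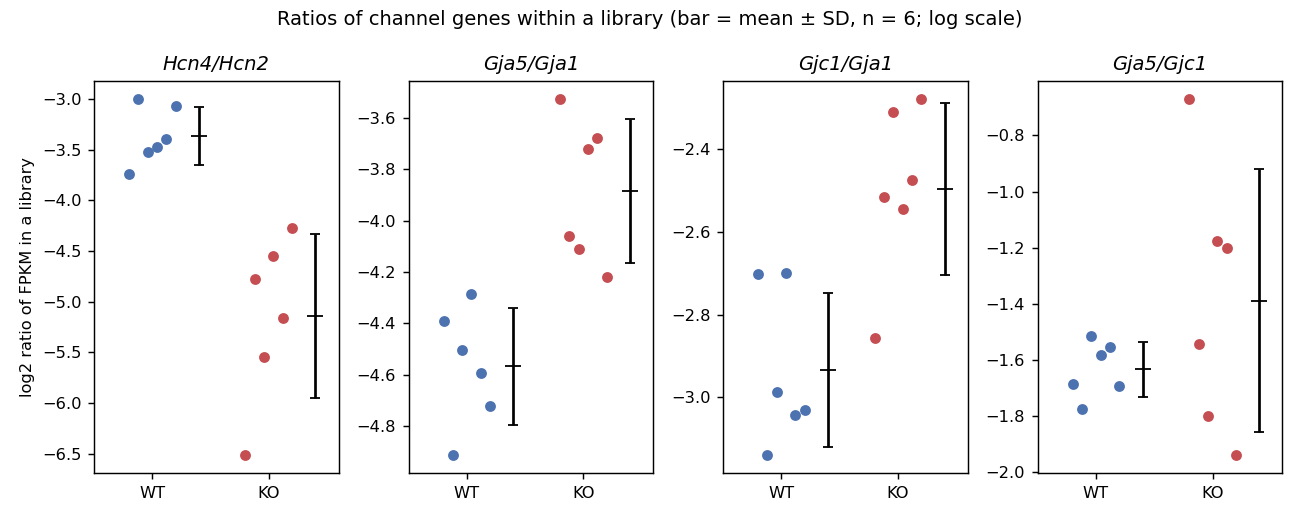
Log2 ratio of the FPKM of 2 genes within a library (y axis), one point per library, with the mean ± SD of each group (n = 6). Hcn4/Hcn2 is lower and Gja5/Gja1 higher in all KO libraries, Gjc1/Gja1 overlaps, and Gja5/Gjc1 is spread more widely in KO than in WT. Of the ratios shown, Hcn4/Hcn2 is spread most widely in KO.

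Summed over the 20 connexin genes with a row, connexin transcripts came to 157.5 ± 21.0 FPKM in WT and 191.7 ± 15.0 FPKM in KO (n = 6 per group, exact permutation p = 0.0108, adjusted p = 0.0156 over the sum and 5 shares of it). Gja1 made up 78.5% ± 2.13 of this sum in WT and 70.5% ± 1.15 in KO, and its highest KO share, 72.2%, was below its lowest WT share, 75.0% (n = 6, exact permutation p = 0.00216, adjusted p = 0.00649). Gjc1 went from 10.3% ± 1.10 to 12.6% ± 1.64 (n = 6, exact permutation, adjusted p = 0.0156). Gja5 went from 3.33% ± 0.445 to 4.85% ± 0.966 (n = 6, exact permutation, adjusted p = 0.00866). Of the 5 shares, the one that rose most was that of Gja4, the gene of connexin 37, from 4.11% ± 0.839 to 8.47% ± 0.853, without overlap (n = 6, exact permutation, adjusted p = 0.00649). Gja3, named here because its share was computed, was 3.05% in WT and 2.67% in KO (exact permutation, adjusted p = 0.210). The shares of a library add up to a whole, so they are not independent of each other.

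**Figure D4:**
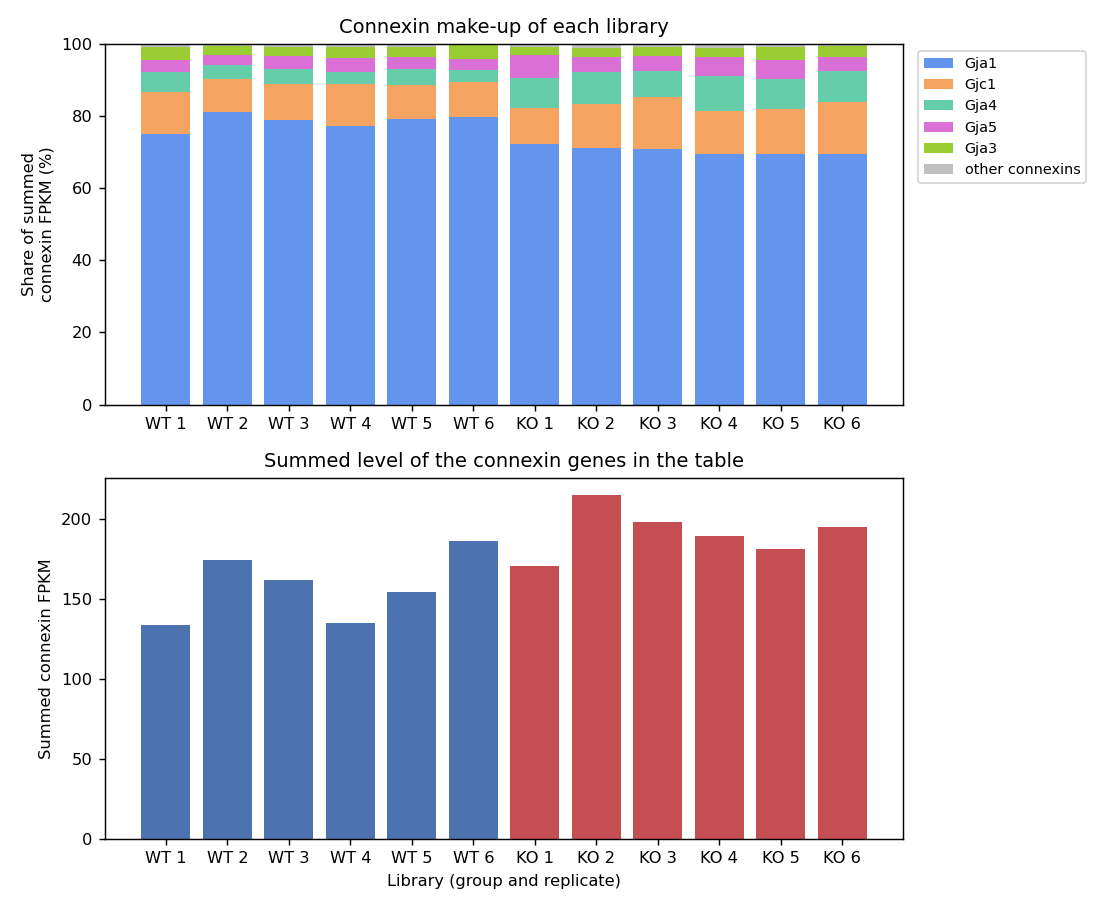
Upper panel, share (%) of each connexin in the summed connexin FPKM of every library. Lower panel, the summed connexin FPKM of the same libraries, from 0. Gja1 takes 75.0% to 81.1% in WT and 69.4% to 72.2% in KO, and the Gja4 share lies between 7.09% and 9.72% in all KO libraries.

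Of 23 connexin and pannexin genes listed, 9 were tested, with a median log2 fold change of 0.59. Beside Gja5 and Gjc1, Gja4 rose from 10.8 ± 1.78 to 27.3 ± 3.27 CPM (log2 fold change 1.34, SE 0.11, adjusted p = 4.11e-08). Panx1, which forms channels to the outside of the cell, rose from 1.37 ± 0.382 to 5.98 ± 1.03 CPM (log2 fold change 2.12, adjusted p = 8.95e-08). Gjc3, a connexin of myelinating glia, fell, from 10 to 28 counts in the WT libraries to 0 to 9 in the KO libraries (adjusted p = 0.000189). In the list of connexin partners, 4 of 9 tested rose and 4 fell (88.9% called, against 51.1% of all rows). Mapre1, whose product EB1 guides microtubules that deliver connexin 43, rose by 0.77 (adjusted p = 1.34e-09), as did Src (0.54), Wwp1 (0.23) and Mapre3 (0.15). Nedd4, a ubiquitin ligase that acts on connexin 43, fell by 0.39 (adjusted p = 2.28e-06), Cnst, which encodes the connexin-binding protein consortin, fell by 0.29 (adjusted p = 3.46e-05), and Tjp1 (-0.20) and Ubqln4 (-0.17) fell too.

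Transcription factors of the conduction system were the last list. Of 14 tested, 6 rose and 1 fell (50.0% called, against 51.1% of all rows), and the median log2 fold change was 0.21. Gata4, a cardiac zinc finger factor, rose from 111 ± 9.03 to 171 ± 8.70 CPM (log2 fold change 0.63, adjusted p = 9.71e-08), and Id2, an inhibitor of helix-loop-helix factors found in the ventricular conduction system, rose by 1.04 (adjusted p = 4.87e-07). Hopx, a homeodomain-only protein of heart muscle and the conduction system, fell by 1.00 (adjusted p = 7.84e-07). The homeobox genes Nkx2-5 (0.49) and Shox2 (1.32) and the T-box genes Tbx18 (0.54) and Tbx2 (0.42) were the other 4 that rose. Shox2 stood at 0.747 CPM in WT and 1.86 in KO, and its row lies with Rsrc1. Tbx3 and Tbx5, T-box genes of the conduction system, did not pass (adjusted p = 0.313 and 0.294).

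Over all 8 lists, 64 of 92 genes were tested, and 24 (37.5%) rose while 14 (21.9%) fell, against 25.6% and 25.5% of all rows, with a median log2 fold change of 0.13. The described genes are counted in these lists.

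Levels can be ordered per length. In WT, mean FPKM was 124 for Gja1, 16.1 for Gjc1, 8.24 for Hcn2, 5.19 for Gja5, 4.55 for Scn4b and 0.818 for Hcn4. Gja5 and Scn4b, next to each other in that order, overlapped in WT (4.69 to 5.63 against 2.83 to 7.17 FPKM), and the other neighbours did not. In KO the order was Gja1 at 135, Gjc1 at 24.2, Gja5 at 9.19, Hcn2 at 7.36, Scn4b at 1.00 and Hcn4 at 0.229 FPKM. There Gja5 (7.30 to 10.7) and Hcn2 (5.98 to 11.0) overlapped.

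Genes expressed in several cell types of the ventricle were read beside marker genes. For all marker counts here and below, the share of all rows called was 51.1%, with 25.6% higher in KO and 25.5% lower. Among arterial endothelial markers 6 of 8 rose, namely Gja4, Sox17 (1.02), Dll4 (0.53), Hey1 (0.44), Efnb2 (0.38) and Sema3g (0.31). In the edgeR test Bmx (0.36, adjusted p = 0.0812) and Cxcl12 (-0.12, adjusted p = 0.510) did not pass. The summed level of the 8 was 432 to 502 CPM in WT and 444 to 596 in KO. Cxcl12, with a mean of 234 CPM in WT and 217 in KO, is the largest part of it. Of the general endothelial markers 3 of 8 rose and 2 fell, with sums of 3017 to 3455 and 2820 to 3486 CPM. Their part in the rise of Gja5 was not tested. Of the smooth muscle and pericyte markers 2 of 8 rose and 3 fell, with sums of 1716 to 1958 CPM in WT and 1523 to 2122 in KO, and their part in the rise of Gjc1 was not tested either.

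Of 8 atrial markers 5 were tested and 4 rose, led by Nppa, which went from 250 to 12641 CPM. Nppa makes up most of the list's sum (198 to 481 CPM in WT, 7203 to 15828 in KO). The study measured Nppa, as Anp, among genes that it ties to hypertrophy and fibrosis in the left ventricle. The other atrial markers that rose were Dkk3 (3.21), Myl4 (0.72) and Nr2f2 (0.70), and Tbx5 did not pass. Myl7, Sln and Bmp10 stayed near 0 in both groups, as given above. Of 8 conduction cell markers 5 were tested, 2 rose (Shox2 and Tbx18) and none fell, while Hcn4 fell. Cntn2, a Purkinje cell marker, was at 6.09 CPM in WT and 6.27 in KO (log2 fold change 0.05, SE 0.45, adjusted p = 0.933). Cpne5, at 0.484 CPM in WT and 0.157 in KO, was not tested. The sums, 82.5 to 141 CPM in WT and 112 to 149 in KO, overlapped. Igfbp5, with a mean of 81.0 CPM in WT and 99.6 in KO, makes up most of them. Skeletal muscle markers were near 0, summing to 2.85 to 15.5 CPM in WT and 1.18 to 5.74 in KO over 10 genes, with Myf6 at 0 in all libraries and 2 of the 3 tested lower.

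Ventricular cardiomyocyte markers gave 1 rise and 5 falls among 10, with sums of 52335 to 56871 CPM in WT and 44489 to 58576 in KO. Of the Schwann cell markers 5 of 6 tested fell, against 25.5% of all rows, beside the fall of Gjc3, Scn4b and Hcn4. Their sums were 17.3 to 33.7 CPM in WT and 11.0 to 20.0 in KO. All 8 fibroblast markers rose, with sums of 1402 to 1716 CPM in WT and 2518 to 5006 in KO, beside the rise of Scn7a and Gjc1. Macrophage markers gave 2 rises and 2 falls among 8, against 25.6% and 25.5% of all rows. The part of these cell types in the channel results was not tested.

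**Figure D5:**
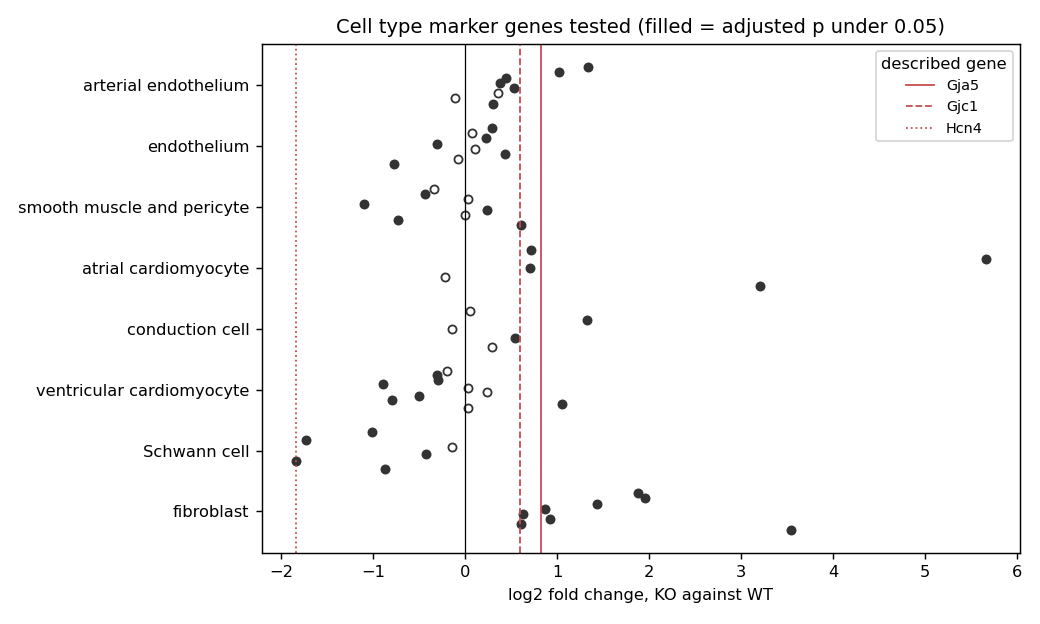
Log2 fold change of KO against WT (x axis) of the tested marker genes of 8 cell types, filled where the adjusted p is under 0.05, with red lines at Gja5 (0.82), Gjc1 (0.59) and Hcn4 (-1.83). Arterial endothelial and fibroblast markers lie mostly right of 0 and Schwann cell markers left of it.

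The annotated genes whose library-to-library pattern was closest to each channel gene were found by Pearson correlation of log2 CPM over the 12 libraries after the mean of each genotype was removed, among 10044 rows with a mean of at least 5 CPM. They describe how the libraries vary within a genotype, and no test was made of them. For Scn4b they were Zfp942 (r = 0.89), Zbtb14 (0.87) and N4bp2l1 (0.86), and for Hcn4 they were Fkbp8 (0.90), Smpd4 (0.88) and Ezr (0.88). Hcn2 was closest to Mid1ip1 (0.95), Marf1 (0.94) and Mrpl16 (0.92). Hcn2 was at 36.6 CPM in KO replicate 3 against 19.0 to 22.4 in the other KO libraries, so that library weighs heavily on its correlations. Gja1 lay nearest to Trim28 (0.88), Sec22c (0.87) and Phf24 (0.86), Gja5 to Kbtbd12 (0.90), Axl (0.90) and Trim56 (0.88), and Gjc1 to Mcm7 (0.92), Gpn1 (0.91) and Crhr2 (0.91). Of the genes named for Scn4b, N4bp2l1 fell in KO as Scn4b did (log2 fold change -1.14), and of those named for Gja5, Axl rose (0.76) while Kbtbd12 fell (-0.80).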

How the data were processed

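Ventricular wall RNA of 6 WT and 6 KO mice was sequenced from poly-A libraries. The authors deposited raw counts per gene (HTSeq) and FPKM values, which are counts over gene length and library total. Per the submitters' processing notes HISAT2 2.0.5 and mm10 were used, whereas the identifiers are those of the C57BL/6NJ assembly, on which coordinates are given. For Gja5 and Gjc1 the length behind the FPKM (2397 and 1953 bases) is shorter than the length listed (3668 and 3413 bases). The authors' group means, fold changes and p-values were not used.

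The fit used edgeR 4.0.16 in R 4.3.3 (rows filtered by filterByExpr, TMM scaling, robust quasi-likelihood test, Benjamini-Hochberg adjustment over 17155 rows of 43686). CPM values are after TMM scaling, except the sums and means of cell type markers and the Wilson interval, which use the library total alone. Standard errors came from the fold change and its F statistic, and approximate 95% intervals from the standard error. Ratios and shares of FPKM were compared by two-sided exact permutation over the 12 libraries (Python 3.11.15, scipy 1.17.1). The labels do not say that each library is a separate mouse beyond numbering it, and p-values measure the spread between these samples.

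Members and gene lists were chosen with earlier results of these data known. Named are the described genes, up to 3 others of each list with the smallest p and the one with the highest FPKM, and the 3 annotated rows nearest in pattern. Other genes were named after their values were seen, to spell out small counts. Alternatives were DESeq2 1.42.0 and its size factors, scaling by library total, 2 other filters, limma-voom and limma 3.58.1 on log2(FPKM + 0.1), a block on the replicate number, and each library left out. Leaving out KO replicate 3 with WT replicate 6 was chosen after seeing the data. Some genes of the lists are counted but not reported here by name.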

Additional observations from a re-analysis of the deposited data

Results flagged for a closer look

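Among 22 groups of 6 libraries, 2 held a library that stood apart from the other 5 by Dixon's 95% critical value of 0.625, where chance gives about 1.1. Hcn2 in KO replicate 3 was 36.6 CPM, whereas the other KO libraries lay between 19.0 and 22.4 CPM. Sdhaf4 in KO replicate 1 was 2.73 CPM, against 2.25 to 2.41 CPM in the other KO libraries, all far below the lowest WT value.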

How the results depend on the processing

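Scn4b and Hcn4 stayed lower and Gja5 and Gjc1 higher, past the threshold, in each of 9 other settings and 12 fits with 1 library left out, while Gja1 passed in none (adjusted p 0.0910 to 0.279 over the settings). Over the left-out libraries the log2 fold change was -2.35 to -2.01 for Scn4b, -2.01 to -1.64 for Hcn4, 0.78 to 0.87 for Gja5, 0.53 to 0.68 for Gjc1 and -0.33 to -0.10 for Hcn2. Hcn2 passed without KO replicate 3 (-0.33, adjusted p = 0.00156), and without it and WT replicate 6 (-0.30, adjusted p = 0.00396), which made 3 described genes lower. Rows called ranged from 4116 to 4626 higher and 4068 to 4518 lower over 8 of the settings. They were not counted for limma on log2(FPKM + 0.1).

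Same-numbered libraries did not deviate together (correlations of -0.162 to 0.0243, and replicate 3 alone correlated best with its own number), so the numbers were not taken as pairs. With a replicate block 4123 rows were higher and 4110 lower, and the calls on the described genes did not change. The log2 ratio of Gjc1 to Gja1 was 0.44 with the replicate block too, where the exact sign-flip permutation over 6 pairs gave p = 0.0625, with 0.0312 the smallest it allows; a test over pairs has fewer arrangements. Hcn4 rests on 8 to 38 counts in KO, which limits its fold change.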
